A study of Homo sapiens with 4 samples.

Results

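The promoters of the TRIM genes, a family of ubiquitin ligases, were compared by their H3K4me3 with and without inhibition of the KDM5 histone demethylases. Members were all genes whose name in the annotated peak table is TRIM followed by a number and that had at least 1 region within 1000 bases of a transcription start site (TSS). They were 48 of the 16403 gene names with such a region, and their 74 regions were summed per gene. A further 16 TRIM genes had regions only farther away. The rule looks at names, so it also took up TRIM51HP, a pseudogene, TRIM52-AS1, an antisense RNA, and TRIM59-IFT80, a readthrough transcript.

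H3K4me3 was mapped by CUT&Tag, in which an antibody guides a transposase to the marked chromatin, in HCC1428, an established line of luminal breast adenocarcinoma cells of unmodified (WT) genotype. Cells carried either the solvent DMSO or 2.5 µM C48, a KDM5 inhibitor, and were collected on day 5. The comparison asks where the mark changes when its demethylases are blocked. Each group held 2 libraries, named biological replicates in the labels. The sources used here do not say if separate cultures were grown for them, so the p-values reflect the spread of these 4 libraries alone, which may be technical.

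KDM5 enzymes remove methyl groups from lysine 4 of histone H3, and the trimethylated form marks the start sites of active and poised genes. Most TRIM proteins carry a RING finger, which recruits a ubiquitin-loaded E2 enzyme, followed by B-boxes and a coiled coil, and the members differ in the C-terminal domain that picks the substrate. Many members with a PRY-SPRY domain restrict viruses or tune the interferon response, the PHD-bromodomain members act on chromatin, and COS-box members bind microtubules.

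The 4 libraries held 58.4 to 88.4 M aligned tags, of which 64.0 to 66.3% fell in the listed regions. Replicates correlated at 0.997 in both groups across genes, which are not independent replicates. The replicate libraries differed by more than sampling noise (chi-square per gene of 3.42 in DMSO and 3.09 in C48), which does not show that they were separate cultures. Each library was counted as a sample, following the labels. The cell type was checked with 10 luminal markers, of which 9 had a TSS region, with DMSO means of 1109 for ESR1, the estrogen receptor gene, and 831 for the luminal factor gene FOXA1 in tags per 10 M scaled by TMM (trimmed mean of M-values), the unit used throughout. One of 6 blood markers (CD14, mean 19.2 in DMSO and 42.1 in C48) and 1 of 6 stromal markers (COL1A2, 42.1 and 84.0) had a TSS region, and both rose (log2 fold changes of 1.10 and 0.98). Of the 9 luminal markers 8 fell under TMM, with a median of -0.89 (FOXA1 -1.13, ESR1 -0.52), against 67.7% lower and a median of -0.43 over all genes. On the ribosomal protein promoters used as another scale below, 4 were higher and 3 lower, against 10963 and 1100 of 14689 genes. The part of other cells in the TRIM values was not tested. In bulk libraries, fewer cells with the mark and less mark per cell cannot be told apart.

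A few interferon-linked members are shown first by their promoter sequence, because a short motif of interferon-stimulated genes lies in them and because their H3K4me3 differed widely. The motif searched was GAAANNGAAA, the core of the interferon-stimulated response element, on both strands. The lines give the 250 bases that end at the TSS (RefSeq, GRCh38.p14), 5′ to 3′ on the strand of the gene, with the motif in capitals as it reads on that strand. The TRIM34 stretch is chr11:5624751-5625000 on the plus strand, that of TRIM5 is chr11:5685075-5685324 on the minus strand, that of TRIM14 is chr9:98119223-98119472 on the minus strand and that of TRIM26 is chr6:30213407-30213656 on the minus strand.
TRIM34: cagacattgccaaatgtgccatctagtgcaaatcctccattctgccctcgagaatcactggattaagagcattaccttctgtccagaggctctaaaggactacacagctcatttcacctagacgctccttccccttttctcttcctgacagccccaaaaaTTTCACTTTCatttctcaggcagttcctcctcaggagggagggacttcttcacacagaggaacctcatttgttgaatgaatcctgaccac
TRIM5: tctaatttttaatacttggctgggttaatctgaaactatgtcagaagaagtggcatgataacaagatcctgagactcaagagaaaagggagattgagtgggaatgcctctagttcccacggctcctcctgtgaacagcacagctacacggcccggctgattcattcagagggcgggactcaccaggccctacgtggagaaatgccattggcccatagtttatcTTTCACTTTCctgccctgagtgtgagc
TRIM14: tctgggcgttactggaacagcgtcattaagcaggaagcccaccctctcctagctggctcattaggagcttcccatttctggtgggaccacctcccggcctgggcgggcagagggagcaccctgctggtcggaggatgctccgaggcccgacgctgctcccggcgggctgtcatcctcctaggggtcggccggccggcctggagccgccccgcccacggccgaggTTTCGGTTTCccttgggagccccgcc
TRIM26: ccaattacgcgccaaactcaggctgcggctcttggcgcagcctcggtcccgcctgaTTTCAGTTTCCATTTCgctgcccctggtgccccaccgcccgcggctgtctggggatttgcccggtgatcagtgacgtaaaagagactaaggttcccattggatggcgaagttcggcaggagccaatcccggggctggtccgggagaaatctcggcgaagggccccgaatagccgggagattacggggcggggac

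The motif starts 90 bases before the TSS in TRIM34, 27 before in TRIM5 and 26 before in TRIM14, and TRIM26 holds a pair of overlapping copies. Of the 48 members, 34 had a window in the RefSeq promoter table, and 8 of their 49 windows (16.3%) held the motif, against 3.57% of all 35116 windows of 300 bases. The other 4 genes with a match were TRIM2, TRIM16, TRIM21 and TRIM44. Of these 8 genes, summed over all their start sites under TMM scaling, 4 had higher H3K4me3 in C48 (TRIM34, TRIM5, TRIM14, TRIM2), TRIM16 had lower and 3 passed neither way (TRIM21, TRIM26, TRIM44), against 16.3% higher and 67.7% lower among all genes tested. In TRIM2, however, the window with the motif, chr4:153151913-153152212, lies upstream of the first summed region, chr4:153153071-153153769, and does not overlap it. The mark in that region fell under TMM, and the other TRIM2 windows hold no motif. The TRIM16 window with the motif, chr17:15682902-15683201, does not overlap the regions summed for TRIM16, nor does that of TRIM26 overlap its region. No match lay in the windows of TRIM25, TRIM38 and TRIM56, which are interferon-linked too, nor in those of the risers TRIM6, TRIM46, TRIM58 and TRIM67. A match is a description of the letters and not a bound site.

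TRIM promoters moved in both directions. Of the 48 members, 43 reached a mean of 5 tags per 10 M and were tested, of which, under TMM scaling, 11 rose, 23 fell and 9 did not pass (limma adjusted p under 0.05, adjusted over all 14648 genes tested). Higher calls made up 25.6% of the tested members, against a background of 16.3% of all genes, and lower calls 53.5%, against 67.7%. The median log2 fold change was -0.19 for TRIM and -0.43 for all genes. The plot of H3K4me3 by gene and library shows that the fallers were mostly strongly marked promoters and the risers mostly weakly marked ones.

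**Figure D1:**
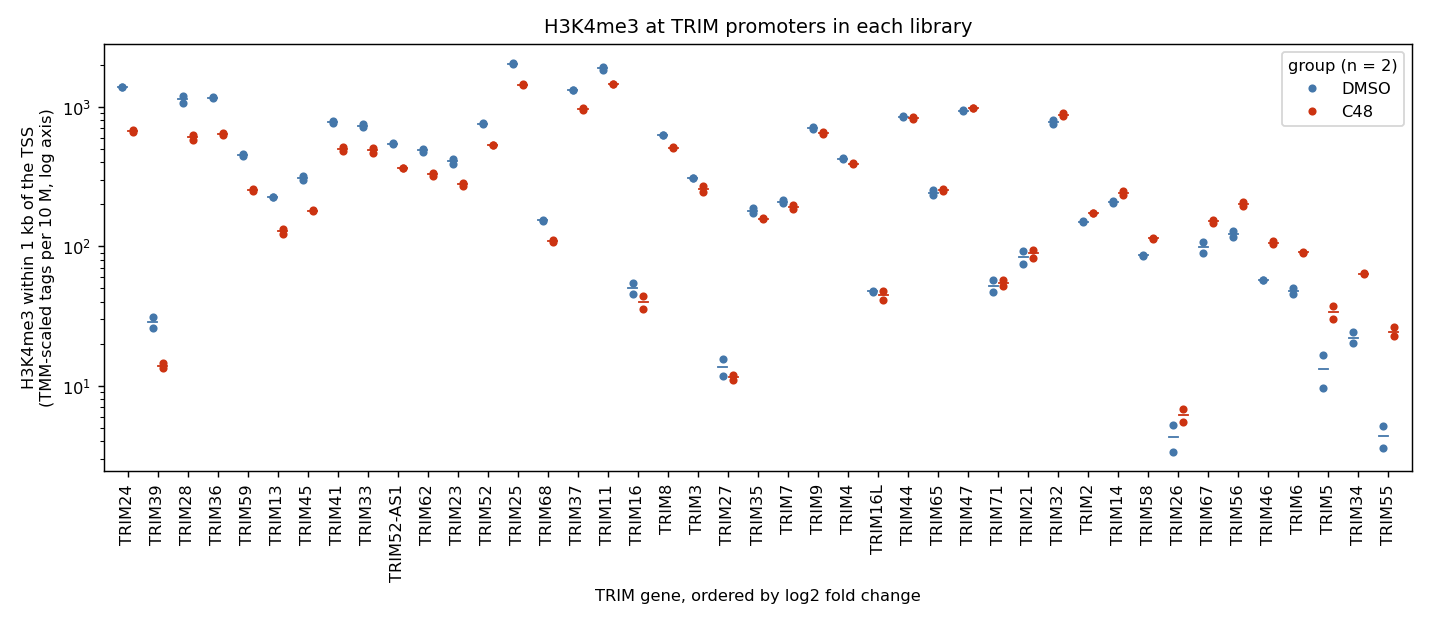
H3K4me3 within 1 kb of the TSS of the 43 tested TRIM genes, ordered by log2 fold change (tags per 10 M after TMM on a log vertical axis; points are libraries, bars are means of 2). The DMSO points lie above the C48 points from TRIM24 to TRIM4 except at TRIM27, and below them from TRIM67 to TRIM55. With values per 10 M as deposited, 24 members were called higher and 14 lower, beside 5251 and 6047 of 14664 genes.

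These directions are relative to the scaling. TMM takes most regions as unchanged, and the Drosophila spike-in that the study added was not used here, because no factors were in the files analysed. The paper reports fewer Drosophila reads in C48 and a global rise of H3K4me3. It states that peaks in C48 are undercounted unless scaled by the spike-in. A fall under TMM is thus relative to most regions, and is not a measured loss of the mark. Under the deposited scale per 10 M tags, every C48 library shifts upward by 0.40 on the log2 scale relative to DMSO. The median of all genes moves to -0.031. Of the TRIM members 24 are higher and 14 lower, beside 5251 and 6047 of 14664 genes. Scaled on 73 ribosomal protein promoters, the all-gene median is 0.39, with 36 TRIM members higher and 1 lower, beside 10963 and 1100 of 14689 genes. Higher under all 4 scalings were 8 members (TRIM5, TRIM6, TRIM34, TRIM46, TRIM55, TRIM56, TRIM58, TRIM67), and TRIM24 alone was lower under all 4. The scalings shift all genes by nearly the same amount, so these are not 4 separate checks. The 8 are those called higher with DESeq2 size factors, as were 1839 of 14644 genes. TRIM24 is the 1 called lower on the ribosomal protein scale, as were 1100 of 14689 genes. The distance between the TRIM and the all-gene median was 0.23 to 0.24 under each, which such a shift fixes in advance, so it is no check.

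Neighbouring PRY-SPRY genes in the cluster at 11p15, known for restricting retroviruses, rose together. TRIM34, a paralog of the retroviral restriction factor TRIM5, held 24.1 and 20.1 in DMSO and 64.0 and 63.3 in C48, a log2 fold change of 1.49 ± 0.15 (SE, n = 2 and 2, limma adjusted p = 1.2e-15). TRIM5, which recognises the capsid of incoming retroviruses, stood at 16.5 and 9.69 in DMSO and 29.9 and 37.5 in C48 (1.33 ± 0.20, limma adjusted p = 3.1e-09). In both genes the lowest C48 library lay above the highest DMSO library, as in 2924 of the 14648 genes tested.

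TRIM6, which makes unanchored ubiquitin chains that aid interferon signalling, had 45.2 and 50.6 in DMSO and 89.2 and 91.7 in C48 (log2 fold change 0.91 ± 0.12, limma adjusted p = 3.5e-11). Its region, chr11:5596447-5597330 (hg38), covers exon 1 and the annotated 5′ UTR of one transcript. TRIM5, TRIM6 and TRIM34 were higher under all 4 scalings. TRIM22, the fourth gene of that block and a strong interferon target, carried almost no mark, with 2 and 0 tags in DMSO and 0 and 5 in C48, and was not tested. TRIM6 and TRIM34 also share a readthrough transcript, so that the name attached to a region follows the nearest annotated start.

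Elsewhere on 11p15 the mark did not follow. TRIM21, the cytosolic antibody receptor, had 93.0 and 75.1 in DMSO and 94.7 and 83.1 in C48 (log2 fold change 0.085 ± 0.11, limma adjusted p = 0.45), and the groups overlapped. Its sign turned to -0.040 with DESeq2 size factors, and it was called higher, at 0.48, with values per 10 M as deposited. TRIM68 (log2 fold change -0.49) and TRIM3 (-0.25), the remaining tested members there, fell, but on the ribosomal protein scale both were called higher.

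TRIM14, a mitochondrial adaptor of the RNA-sensing protein MAVS that lacks a RING finger, rose slightly, from 212 and 204 to 249 and 235 (log2 fold change 0.22 ± 0.069, limma adjusted p = 0.0030). Without C48 replicate 1 its call was lost (0.17, limma adjusted p = 0.072), and so it was with DESeq2 size factors (0.090, limma adjusted p = 0.25). TRIM26 was barely marked, with 5.25 and 3.35 in DMSO and 6.84 and 5.52 in C48, and did not pass (0.46 ± 0.32, limma adjusted p = 0.18). TRIM38, which dampens innate signalling, held 2 to 9 tags per library and was not tested.

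TRIM25, the ligase that ubiquitinates the RNA sensor RIG-I, went the other way from one of the tallest TRIM peaks. It had 2050 and 2025 in DMSO and 1439 and 1453 in C48 (log2 fold change -0.49 ± 0.037, limma adjusted p = 8.0e-22). The groups did not overlap, as for 10441 of the 14648 genes tested that were lower without overlap. TRIM25 was higher, at 0.33, when scaled on ribosomal protein promoters. TRIM56, which has been tied to STING and RNA-sensing responses and has no PRY-SPRY domain, rose from 129 and 116 to 196 and 207 (0.71 ± 0.081, limma adjusted p = 2.9e-13) under all 4 scalings. Taken as a list of interferon-linked genes, 9 of 10 had a TSS region (TRIM69 did not), 7 were tested and 4 rose (TRIM5, TRIM14, TRIM34, TRIM56), 1 fell (TRIM25) and 2 did not pass, with a median log2 fold change of 0.46 (all genes: 16.3% higher, 67.7% lower, median -0.43). On the ribosomal protein scale all 7 were higher, as were 10963 of 14689 genes. The 5 members of the study's interferon signature list (TRIM6, TRIM14, TRIM21, TRIM25, TRIM26), whose source data are not given in the sources used here, counted 2 higher, 1 lower and 2 not passing under TMM, with a median of 0.22. On the ribosomal protein scale all 5 were higher, and with the deposited values 4 were higher and 1 lower (all genes: 5251 and 6047 of 14664). DESeq2 size factors gave 1 higher and 1 lower, with a median of 0.090 (all genes: 1839 and 10656 of 14644, median -0.56).

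The chromatin members with a PHD finger and a bromodomain fell together under TMM, though only TRIM24 fell under all 4 scalings. TRIM24, a reader of unmodified H3K4 and coregulator of nuclear receptors such as the estrogen receptor, went from 1395 and 1398 in DMSO to 656 and 687 in C48 (log2 fold change -1.06 ± 0.042, limma adjusted p = 1.4e-38). TRIM28, the KAP1 corepressor that zinc finger proteins bring to transposable elements, went from 1202 and 1061 to 576 and 633 (-0.90 ± 0.047, limma adjusted p = 2.7e-31). TRIM33, which binds SMAD proteins, went from 754 and 716 to 467 and 509 (-0.59 ± 0.049, limma adjusted p = 1.6e-19).

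No library of the 3 genes overlapped between groups, and their median was -0.90. Of the 14648 genes tested, 10441 were likewise lower in C48 without overlap. Scaled on ribosomal protein promoters, however, TRIM33 turned to 0.23, TRIM28 was at -0.078 and no longer passed, while TRIM24 was still called lower. Of 12 genes whose products work with TRIM28, such as the histone methyltransferase SETDB1 (-0.59) and the heterochromatin protein genes CBX5 (-0.75) and CBX3 (-1.10), 11 fell and CHD3 did not pass, with a median of -0.51, against -0.43 for all genes. On the ribosomal protein scale 9 of these 12 were higher and 1 lower, and with the deposited values 2 and 5. Among all genes the counts were 10963 and 1100 of 14689, and 5251 and 6047 of 14664.

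COS-box genes split. TRIM46, which organises microtubules at the start of the axon, rose from 57.2 and 57.6 to 103 and 109 (log2 fold change 0.87 ± 0.11, limma adjusted p = 7.9e-12), and TRIM67 from 108 and 88.9 to 148 and 156 (0.63 ± 0.091, limma adjusted p = 2.3e-09). TRIM46 had a called peak in both C48 libraries and in neither DMSO library, as did TRIM55 and the barely marked TRIM26, and TRIM51HP was called in C48 replicate 1 alone. Over the whole series the C48 libraries had 37462 and 37867 called regions, against 30162 and 29745 in DMSO. The share of all genes called in C48 only was not computed. TRIM55, a muscle sarcomere protein gene named here after its values were seen, went from 3.55 and 5.11 to 26.3 and 22.6. This was the highest log2 fold change among the tested members (2.27 ± 0.25). The DMSO mean of TRIM55, 4.33, was under the filter of 5. It was thus tested only through its C48 level, and its p-value is no support for the rise.

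In the same class, TRIM36 fell from 1172 and 1160 to 626 and 652 (log2 fold change -0.87 ± 0.043, limma adjusted p = 2.0e-32) and TRIM9, a neuronal member, fell by 0.13, a call that was lost when DMSO replicate 1 or C48 replicate 1 was left out. Scaled on ribosomal protein promoters TRIM36 stood at -0.043 and no longer passed, and TRIM9 was called higher there and with the deposited values.

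**Figure D2:**
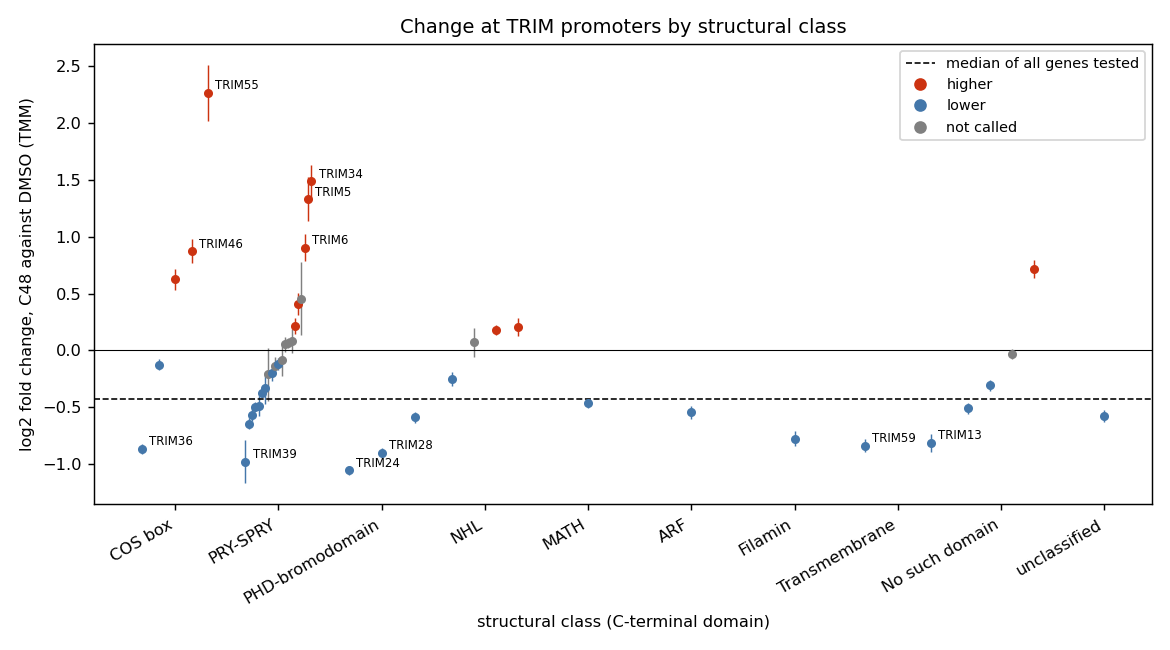
Log2 fold change of C48 against DMSO (vertical axis, TMM scaling) for each tested TRIM gene, grouped by C-terminal domain (horizontal axis). Points are estimates with SE over 2 libraries per group, and the dashed line is the all-gene median of -0.43. The 3 PHD-bromodomain genes lie below that line and 3 of the 5 COS-box genes above 0, while scaling on ribosomal protein promoters lifts every point by about the same amount and turns TRIM33 positive.

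Among single-gene classes, TRIM37 (MATH domain, a histone H2A ligase amplified in some breast tumours) fell from 1320 and 1327 to 944 and 976 (log2 fold change -0.46 ± 0.040, limma adjusted p = 2.5e-18), although it was higher, at 0.36, on the ribosomal protein scale. The membrane-anchored TRIM59 fell from 460 and 444 to 247 and 258 (-0.84 ± 0.058, limma adjusted p = 1.2e-23), and TRIM13, an endoplasmic reticulum ligase, from 224 and 227 to 123 and 133 (-0.82 ± 0.077, limma adjusted p = 1.7e-16). Neither passed on the ribosomal protein scale, where TRIM13 was at 0.0043. TRIM23 (ARF domain, -0.55) and TRIM45 (filamin domain, -0.78) fell as well, but on that scale stood at 0.28 and 0.046.

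The NHL-domain genes, RNA-binding or cytoskeletal ligases, changed little under TMM. All 4 were called higher on the ribosomal protein scale and with the deposited values, and none with DESeq2 size factors. Among all genes, 10963 of 14689, 5251 of 14664 and 1839 of 14644 were higher under these. TRIM32 (log2 fold change 0.18) and TRIM2 (0.21) rose, TRIM3 (-0.25) fell and TRIM71 (0.073), a stem cell RNA regulator, did not pass. The TRIM2 call was lost without either C48 library. Outside the interferon-linked members, the PRY-SPRY class contained TRIM58 (0.40), which rose under all 4 scalings, and the fallers TRIM41 (-0.64), TRIM62 (-0.56), TRIM11 (-0.38), TRIM16 (-0.33), TRIM35 (-0.19) and TRIM4 (-0.12), all of which were called higher on the ribosomal protein scale. TRIM16, TRIM35 and TRIM4 lost their calls when single libraries were left out, and TRIM16 shares sequence with TRIM16L, so that tags could be split between them. As a class, 21 PRY-SPRY genes were tested, with 5 higher (23.8%), 9 lower (42.9%) and a median of -0.12, against 16.3%, 67.7% and -0.43 over all genes.

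The remaining members complete the count. TRIM52 (log2 fold change -0.51) and TRIM52-AS1 (-0.58), whose regions are neighbours on chromosome 5, and TRIM8 (-0.31) fell, but all 3 were called higher on the ribosomal protein scale. TRIM7 (-0.13), TRIM44 (-0.031), TRIM65 (0.057) and TRIM47 (0.064) did not pass under TMM. Each of them was called higher on the ribosomal protein scale and with the deposited values, as were 10963 of 14689 and 5251 of 14664 genes. With DESeq2 size factors TRIM7 and TRIM44 were called lower, as were 10656 of 14644 genes. Besides TRIM22 and TRIM38, too weak to be tested were TRIM29 (14 and 10 tags in DMSO, 3 and 2 in C48), TRIM51HP (10 and 9, 26 and 16) and TRIM59-IFT80 (4 and 1, 3 and 0).

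On chromosome 6p the region assignment limits the reading. TRIM39, a regulator of apoptosis and the cell cycle, fell from 31.1 and 26.1 to 13.4 and 14.5 (log2 fold change -0.98 ± 0.19, limma adjusted p = 2.9e-06). TRIM27, a RING ligase of the same region, had 11.7 and 15.5 in DMSO and 11.01 and 12.01 in C48 (-0.21 ± 0.23, limma adjusted p = 0.39), its sign turning to 0.16 with the deposited values. Both were listed within 1 kb only on alternate contigs of the major histocompatibility region, where tags can also belong to the primary chromosome. TRIM39 did not pass on the ribosomal protein scale (-0.20).

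Genes of the same pathway, chosen as lists with earlier results known, were mostly lower under TMM, as were most genes, but not under every scaling. All 14 E2 enzyme genes fell, from UBE2L3 (log2 fold change -0.40) to UBE2E3 (-1.08), with a median of -0.73, against 67.7% lower and a median of -0.43 over all genes. UBE2N, which builds ubiquitin chains used in immune signalling, fell by 0.91 on the log2 scale. On the ribosomal protein scale, however, 7 E2 genes were higher and 3 lower, and with the deposited values 11 were lower and none higher. Among all genes, 10963 of 14689 were higher and 1100 lower on the former, and 5251 of 14664 higher and 6047 lower with the latter. In the RNA-sensing pathway on which TRIM25 acts, 10 of 12 genes were tested, 8 fell, among them MAVS (-0.49) and IFIH1 (-0.31), DDX58, which encodes RIG-I, did not pass (-0.12), and IKBKE, a kinase of interferon induction, rose (0.77) under all 4 scalings. The list's 80% lower and median of -0.47 under TMM were near the all-gene 67.7% and -0.43. On the ribosomal protein scale 9 of the 10 were higher, as were most genes. TRIM-type genes under other names split 3 and 3 (all genes: 16.3% higher, 67.7% lower), with MID1 (0.55), CMYA5 (0.65) and RNF207 (0.52) higher and PML (-0.33), MID2 (-0.42) and BSPRY (-0.46) lower. All 6 were higher on the ribosomal protein scale, again as were most genes.

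The size of the change went with the level and with the CpG content of the promoter. Of the 19 tested members with a mean under 200 tags per 10 M, 9 rose and 5 fell, against 33.0% and 35.7% of all genes under that level. Of the 24 above it 2 rose and 18 fell, against 5.65% and 88.1% of all genes there. The medians of the 4 level classes, from 5 to 50, 50 to 200, 200 to 500 and 500 or more, were 0.18, 0.21, -0.40 and -0.48 for TRIM and 0.35, -0.17, -0.50 and -0.67 for all genes. So the family's gradient is also that of the whole table, and the mean level enters the fold change it is set against.

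The CpG observed to expected ratio was computed from hg38 over the strongest region of each gene. Under a ratio of 0.6, a split made after the values were seen, 6 of 10 TRIM genes rose and 3 fell, with a median log2 fold change of 0.79, against 44.1% higher, 29.8% lower and a median of 0.16 over 2177 genes. At 0.6 or above, 5 of 33 TRIM genes rose and 20 fell (median -0.25), against 11.5% higher, 74.3% lower and a median of -0.49 over 12442 genes. Level was not held equal in these counts. With a mean under 200 and a ratio under 0.6, 6 of 8 TRIM genes rose and 1 fell (median 0.89), against 829 and 230 of 1545 genes (median 0.38). With such a mean and a ratio of 0.6 or above, 3 of 11 rose and 4 fell (median -0.088), against 1054 and 1790 of 4132 genes (median -0.13). TRIM34 (ratio 0.14), TRIM5 (0.23), TRIM55 (0.40), TRIM56 (0.43), TRIM6 (0.47) and TRIM46 (0.53) were the CpG-poor risers, and TRIM16 (0.57), TRIM41 (0.59) and TRIM11 (0.59) the CpG-poor fallers. TRIM21 (0.21) was as CpG-poor and did not pass, whereas TRIM67 (0.80) and TRIM58 (0.92) were CpG-rich and rose.

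**Figure D3:**
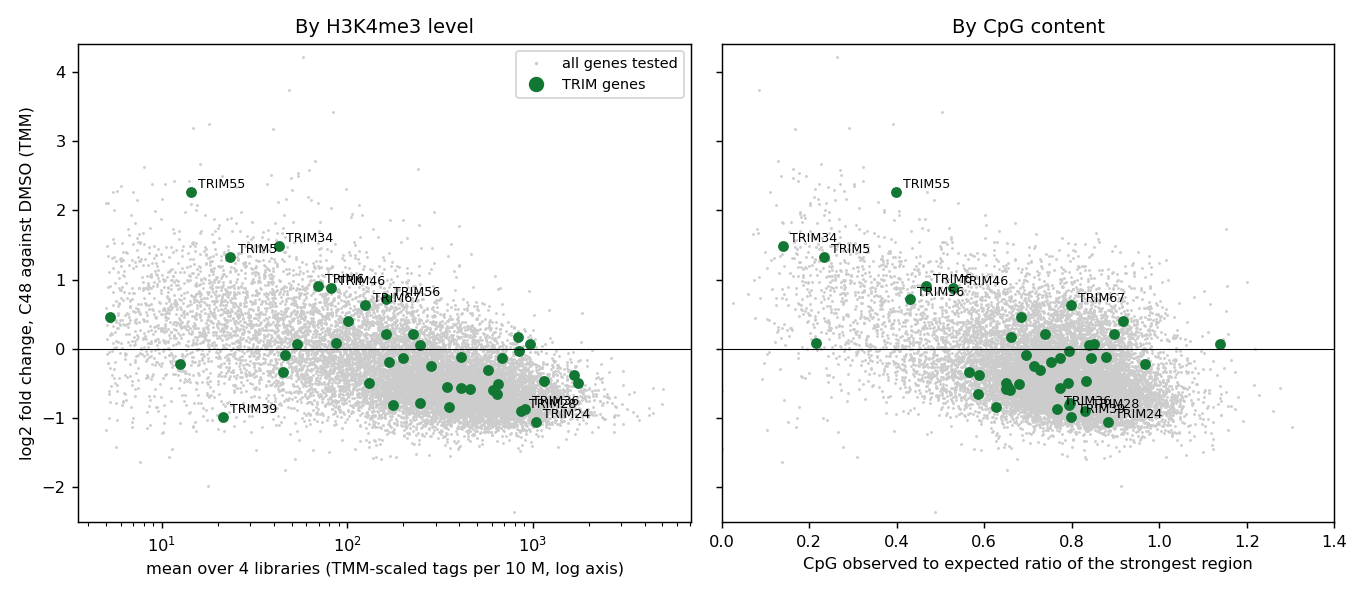
Log2 fold change of C48 against DMSO (vertical axis, TMM scaling) against the mean level over 4 libraries (left, log axis) and the CpG observed to expected ratio of the strongest region (right), with TRIM genes in green over all tested genes in grey. TRIM34, TRIM5 and TRIM55 lie high among weakly marked, CpG-poor promoters, TRIM24 and TRIM28 low among strongly marked, CpG-rich ones; another scaling moves all points by nearly the same amount against zero.

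Separate start sites of 1 gene changed to different extents, and under TMM in opposite directions. Among single regions within 1 kb, 51 TRIM regions were tested, of which 14 rose and 27 fell (27.5% and 52.9%), against a background of 17.4% and 66.2% of all such regions. In TRIM2 the first start site, chr4:153153071-153153769 (hg38, intron 1 of a long transcript), fell from 132 and 127 to 102 and 105 (log2 fold change -0.32 ± 0.087, limma adjusted p = 0.0013). The last of its start sites, chr4:153257024-153257696, annotated as a promoter, rose from 15.6 and 16.6 to 54.0 and 59.2 (1.75 ± 0.16, limma adjusted p = 8.8e-14). The middle one rose as well (1.23), but its DMSO mean of 4.68 was under the filter of 5, so it was tested only through C48. The fall at the first start depends on the scaling, since its log2 fold change was 0.080 with the deposited values and 0.50 on the ribosomal protein scale, where the last start stood at 2.14 and 2.54.

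TRIM16L, the TRIM16 paralog, showed the same split under TMM. Its main start site, chr17:18697620-18698520, fell from 45.6 and 46.2 to 37.2 and 29.7 (log2 fold change -0.46 ± 0.14, limma adjusted p = 0.0046). An intronic start at chr17:18722278-18723145 rose from 2.10 and 0.877 to 10.9 and 11.6 (2.34 ± 0.36). That intronic region was called in the C48 libraries only, and its DMSO mean of 1.49 was under the filter of 5. It was thus tested only through C48, and its p-value is no support for the rise. The sum over both did not pass (-0.088), and the main start was at -0.065 with the deposited values and 0.35 on the ribosomal protein scale. In TRIM36 the dominant region chr5:115169897-115170562 fell from 920 and 919 to 448 and 465 (-1.01), and a weaker upstream start at chr5:115179913-115180607 rose from 25.0 and 21.3 to 33.2 and 34.0 (0.52 ± 0.16, limma adjusted p = 0.0047). The dominant TRIM36 region was below 0 and the weaker one above it under all 4 scalings, at -0.19 and 1.31 on the ribosomal protein scale.

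In TRIM34 the gain sat at the start whose sequence is printed above, in the region chr11:5624591-5625219, with 16.3 and 12.3 in DMSO and 53.1 and 51.3 in C48 (log2 fold change 1.81 ± 0.17, limma adjusted p = 2.7e-13). The upstream start of TRIM34, at chr11:5620215-5621020, had 7.35 and 7.76 in DMSO and 8.63 and 10.4 in C48 and did not pass (0.30 ± 0.27, limma adjusted p = 0.33). The differences between start sites of a gene were not tested.

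**Figure D4:**
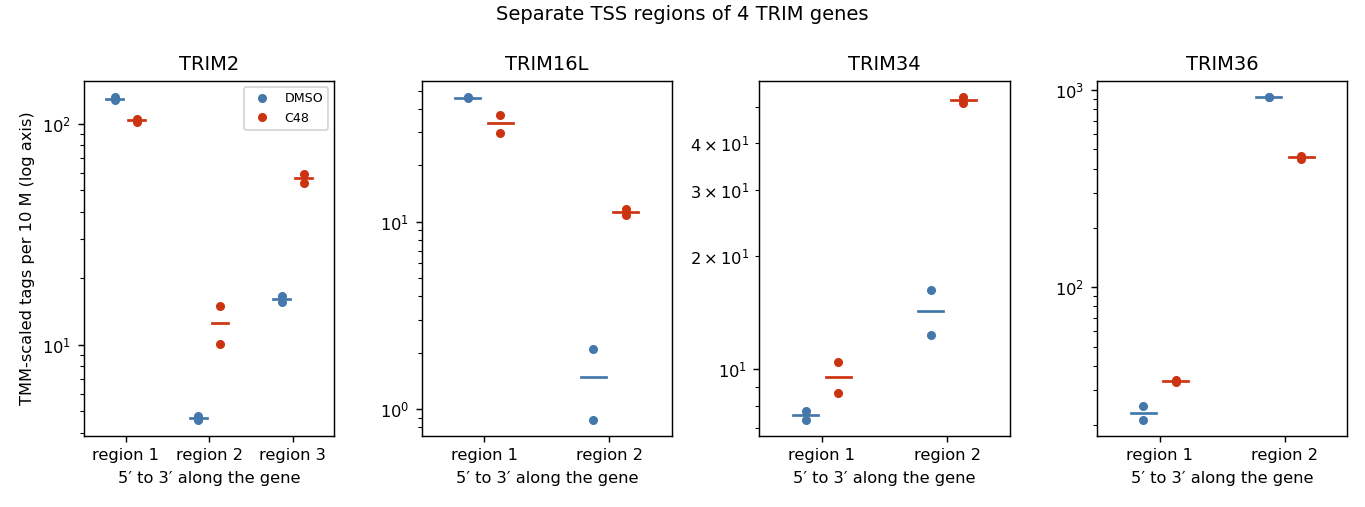
TMM-scaled tags per 10 M (vertical axes, log) in each library at the tested TSS regions of TRIM2, TRIM16L, TRIM34 and TRIM36, ordered 5′ to 3′ along the gene, with bars at the mean of 2 libraries. The first TRIM2 and TRIM16L regions and the main TRIM36 region are lower in C48 and their other regions higher; with values per 10 M as deposited all C48 points shift up by 0.40 on the log2 scale, which turns the first TRIM2 region to 0.080.

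Away from the start sites TRIM regions more often rose. Of 46 tested regions over 1 kb from a TSS, in 27 genes, 23 rose and 8 fell (50% and 17.4%), against 45.8% and 14.9% of all such regions, so the shares were near the background. The median log2 fold change was 0.45, against 0.39. At the 1 kb limit itself, the last region inside was a TRIM71 region at -972 bases (56.0 and 46.2 in DMSO, 56.5 and 51.9 in C48), and the first outside was in TRIM5 intron 1 at 1008 bases (0.267 and 0, then 2.67 and 1.80). Among the tested regions over 1 kb, the highest log2 fold changes were in exons. In exon 2 of TRIM32, chr9:116697992-116698590, the mark went from 16.0 and 11.8 to 84.0 and 79.1 (2.48 ± 0.16, limma adjusted p = 4.0e-19), and in exon 2 of TRIM47, a PRY-SPRY ligase, chr17:75876540-75877063, from 73.8 and 72.6 to 370 and 365 (2.31 ± 0.075, limma adjusted p = 5.7e-29).

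The spread of the mark beside the start was tested per gene, as the change 1 to 5 kb from the TSS minus the change within 1 kb, a difference in which the scaling cancels but for the pseudocount. Of the 11 TRIM genes with enough tags in both places, 8 had a higher change in the flank, against 73.8% of all 2941 genes tested, and 3 had a lower one, against 7.14%. Enough meant a mean of at least 5 over the 4 libraries. The TRIM56 flank (DMSO mean 3.49) and the TRIM55 start (DMSO mean 4.33) reached it only through C48. The median difference was 1.61 for TRIM and 0.90 for all genes. The same 8 genes had the higher change in the flank with a pseudocount of 5, with a flank of up to 2 kb, where TRIM8 was not tested, and with each library left out.

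Around TRIM47 the start itself was level under TMM, with 943 and 937 in DMSO and 987 and 979 in C48, while the exon 2 flank rose 5.02-fold (difference 2.25 ± 0.085, limma adjusted p = 0.00022). With the deposited values and on the ribosomal protein scale the TRIM47 start was called higher, at 0.46 and 0.89. TRIM56 had a flank in intron 1 that went from 2.76 and 4.23 to 34.4 and 37.9, well beyond the gain at its start (difference 2.35 ± 0.23). Because this flank was tested only through its C48 level, the p-value of that difference is no support for it. Beside TRIM25 the flank went from 91.1 and 84.1 to 199 and 182 while the start fell (difference 1.61 ± 0.12, limma adjusted p = 0.00030).

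TRIM24 and TRIM28 had the same pattern from a steeper fall. The TRIM24 flank in intron 1 went from 67.9 and 71.6 to 119 and 119 (difference 1.82 ± 0.10, limma adjusted p = 0.00022), and the TRIM28 flank, over exon 3, from 253 and 248 to 302 and 294 (difference 1.15 ± 0.10, limma adjusted p = 0.00047). TRIM9 (1.91), TRIM59 (2.03) and TRIM62 (0.42) also gained relative to their starts. In TRIM8 (-0.78), TRIM7 (-0.49) and TRIM55 (-1.51) the change in the flank was lower than that at the start, although the TRIM55 flank itself went from 22.2 and 22.6 to 37.9 and 38.9. The flanks of TRIM8 and TRIM7 lie upstream in sequence annotated as intergenic, and whether they belong to another start was not tested.

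**Figure D5:**
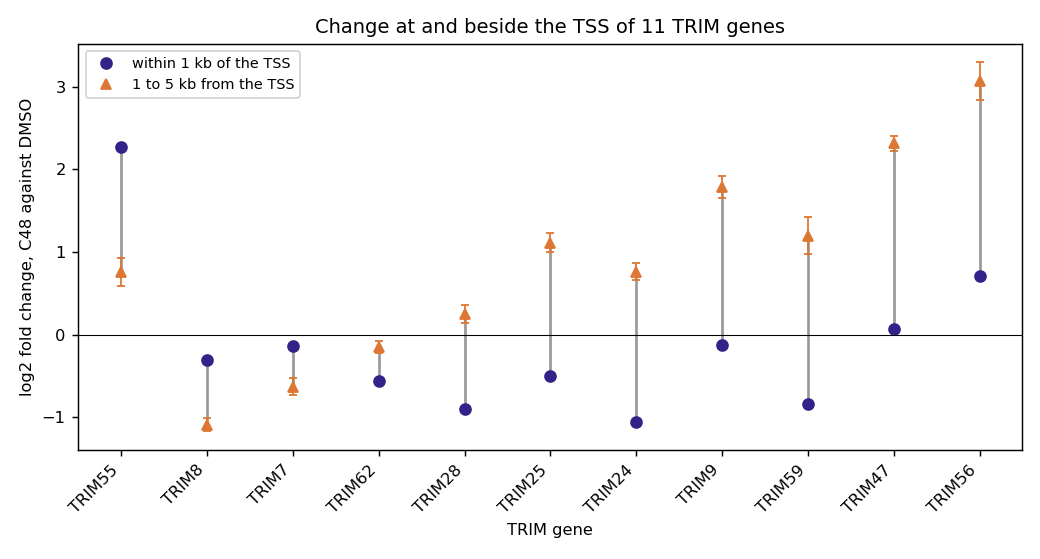
Log2 fold change of C48 against DMSO (vertical axis, TMM scaling) within 1 kb of the TSS (circles) and 1 to 5 kb away (triangles) for 11 TRIM genes; bars are the SE of the difference between them. In 8 genes the triangle lies above the circle and in TRIM55, TRIM8 and TRIM7 below it; another scaling shifts both symbols together and lifts or lowers their position against zero.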

How the data were processed

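H3K4me3 CUT&Tag was analysed in 4 libraries, 2 DMSO and 2 C48. Per the submitters' processing notes the authors aligned reads with Bowtie2 2.3.4.1 and used HOMER (version not given) on hg38, with dm6 for the Drosophila spike-in. The deposited values are signal, that is HOMER tags per region scaled to 10 M, over peaks called per library and merged. All values were whole tags (within 0.1) at library depths of 58.4 to 88.4 M, which limit precision to counting error and replicate spread.

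Regions within 1000 bases of a TSS were summed per gene, scaled by TMM (edgeR 4.0.16) on regions called in at least 1 library, and fitted as log2(value + 1) with limma 3.58.1 in R 4.3.3 over genes with a mean of at least 5, with Benjamini-Hochberg adjustment and calls at 0.05. Fold changes on this scale understate low genes. Single regions needed a call in at least 1 library and a mean of at least 5. The flank fit used the per-library difference of log2 sums. Motifs and CpG content were read with Python 3.11.15. The fits were tested on simulated data. The edgeR quasi-likelihood test on recovered tags, DESeq2 1.42.0 size factors, other filters, windows and pseudocounts, and left-out libraries were alternatives.

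Members and gene lists were chosen with earlier results of these data known. Named with values were a fixed set of interferon, chromatin and breast cancer members, the 6 largest rises and the 6 largest falls among called members with a mean of at least 20 and no overlap between groups, and others by class. The table of repeat elements was not used, since it holds no genes.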

Additional observations from a re-analysis of the deposited data

How the results depend on the processing

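The number of TRIM promoters called depended most on scaling. With values per 10 M as deposited, 24 members were higher and 14 lower, with a median log2 fold change of 0.20 (all genes: 5251 and 6047 of 14664, median -0.031). Scaled on ribosomal protein promoters, 36 were higher and 1 lower, with a median of 0.63 (all genes: 10963 and 1100 of 14689, median 0.39). With DESeq2 size factors the median was -0.32. It was -0.16 with no filter on the mean, -0.22 with a mean of at least 20 and -0.16 with a pseudocount of 5. With regions annotated promoter-TSS alone, 27 members were tested, 7 higher and 13 lower (all genes: 1631 and 6187 of 10009). Leaving out each library in turn gave 9 to 11 higher, 20 to 22 lower and medians of -0.18 to -0.14. The edgeR quasi-likelihood test gave 11 higher and 23 lower. The TRIM median stayed above the all-gene median by 0.21 to 0.29 in all of these. For the scalings this is no check, since each shifts all genes by nearly the same amount.

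Of the 43 tested members, 22 turned from negative to positive on ribosomal protein scaling and 11 with the deposited values. Among the 19 named with values, signs reversed on ribosomal protein scaling for TRIM13 (0.0043), TRIM25 (0.33), TRIM27 (0.55), TRIM33 (0.23) and TRIM37 (0.36), with deposited values for TRIM27 (0.16), and for TRIM21 with DESeq2 size factors (-0.040), and with single libraries left out (-0.067 to 0.24, below 0 without DMSO replicate 2 and, at -0.0081, without C48 replicate 1). The scalings differ by construction in the shift they give every gene. Of 275 values recomputed for 19 named genes, 255 kept direction and side of the threshold.

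The same-numbered libraries deviated with a correlation of -0.039 and share only a number. With replicate number as a block, 11 members were higher and 22 lower, and 8 flanks were higher. TRIM22, TRIM29, TRIM38, TRIM51HP and TRIM59-IFT80 held 0 to 26 tags per library, too few to test.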
